A study of Oryctolagus cuniculus with 36 samples.

Results

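Genes of the interferon response and of antigen presentation were followed in rabbit liver RNA from a series on repairing hereditary tyrosinemia type I in newborn animals with CRISPR/Cas9. The genes came from a list of 49 symbols, picked by their known roles in the pathway, with earlier results of these data known. Of these, 42 matched a row of the count table by symbol, out of 23394 genes in all, and they were described in 3 classes. These were 11 of 11 signalling factors, 21 of 28 antiviral effectors and 10 of 10 genes of antigen processing. After a filter on low counts 41 of the 42 remained among 14939 tested genes, and ISG20 was the member that did not pass.

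The sample titles form 3 groups of livers, FK, FA and wild type (WT), and the labels do not spell out what FK and FA stand for. All 36 libraries carry the same disease description, WT included, so only the titles tell the groups apart, and the labels give no age, strain, allele, agent or time for any group. The livers were treated with trypsin before extraction. Each group holds 3 numbered sets of 4 libraries, and the counts of the 4 were added up to 1 replicate (n = 3 in each group). Nothing in the labels says that libraries or sets came from separate animals, so the p-values below speak to the variation among sets alone, whether technical or not.

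Interferons are secreted when a cell senses viral or displaced nucleic acid. They bind receptors that act through JAK kinases and STAT proteins, and a complex of STAT proteins with IRF9 switches on a large set of antiviral genes. Interferon gamma in addition induces IRF1 and the machinery that cuts proteins into peptides, carries them into the endoplasmic reticulum and loads them on MHC molecules. In liver, hepatocytes, Kupffer cells and endothelial cells all carry interferon receptors, and uninfected liver expresses many of these genes at a resting level.

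FAH, the enzyme lost in the disease, stood at 16.4, 11.8 and 14.6 CPM in the FK replicates and 25.8, 24.7 and 19.6 CPM in the FA replicates, against 237, 271 and 218 CPM in the WT replicates. CPM are counts per M counts of a replicate after TMM scaling. Replicates held 53.2 to 78.6 M counts and single libraries 11.7 to 22.5 M. All 12 hepatocyte markers were present in every replicate. FK replicate 3 stood apart from its group. Over all genes its log CPM correlated at 0.854 and 0.821 with FK replicates 1 and 2 and at 0.958 to 0.970 with the FA replicates. Fits without that replicate are given after the 3 classes. Across the members, the median coefficient of variation over the 4 libraries of a replicate was 11.7%, while over the 3 replicates it was 63.6% in FK, 29.3% in FA and 26.6% in WT.

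The FK livers had lower levels than WT livers for most members of all 3 classes, but the main test called only 1 of the 41. STAT2 fell, and no other member passed the test between FK and WT in either direction at a Benjamini-Hochberg adjusted p under 0.05 (edgeR's quasi-likelihood test). Of all genes tested, 1.73% were called lower and 3.04% higher in FK, so 1 lower member of 41 is near that background. The fitted log2 change between FK and WT was negative for 36 of 41 members, with a median of -0.89 against 0.05 over all genes. By class, the median was -0.52 for signalling factors, -1.20 for antiviral effectors and -0.65 for antigen processing. At an unadjusted p under 0.05, 16 members were lower and 2 higher, where 10.2% and 16.7% of all genes were. DESeq2 called 13 members lower and 0 higher, where it called 5.78% and 10.7% of all genes. All 3 FK replicates lay below all 3 WT replicates for 14 members, where 13.4% of all genes did so, and above them for 1 member, where 13.9% did.

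The replicates of FK were unlike each other in these genes. Set against the mean of WT, the median effector stood at log2 differences of -2.02 and -2.02 in FK replicates 1 and 2 and at -0.27 in FK replicate 3. For signalling factors the medians were -1.37, -1.11 and -0.13 in the same order, and for antigen processing -1.0, -0.43 and -0.49. The median antigen processing gene thus did not share the split of FK replicate 3 from the other FK replicates. FK replicate 1 lay below every WT replicate for 37 of 41 members, FK replicate 2 for 32 and FK replicate 3 for 19. Over all genes these shares were 37.8%, 39.1% and 33.2%. In bulk tissue, fewer cells of a type and less RNA per cell cannot be told apart.

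**Figure D1:**
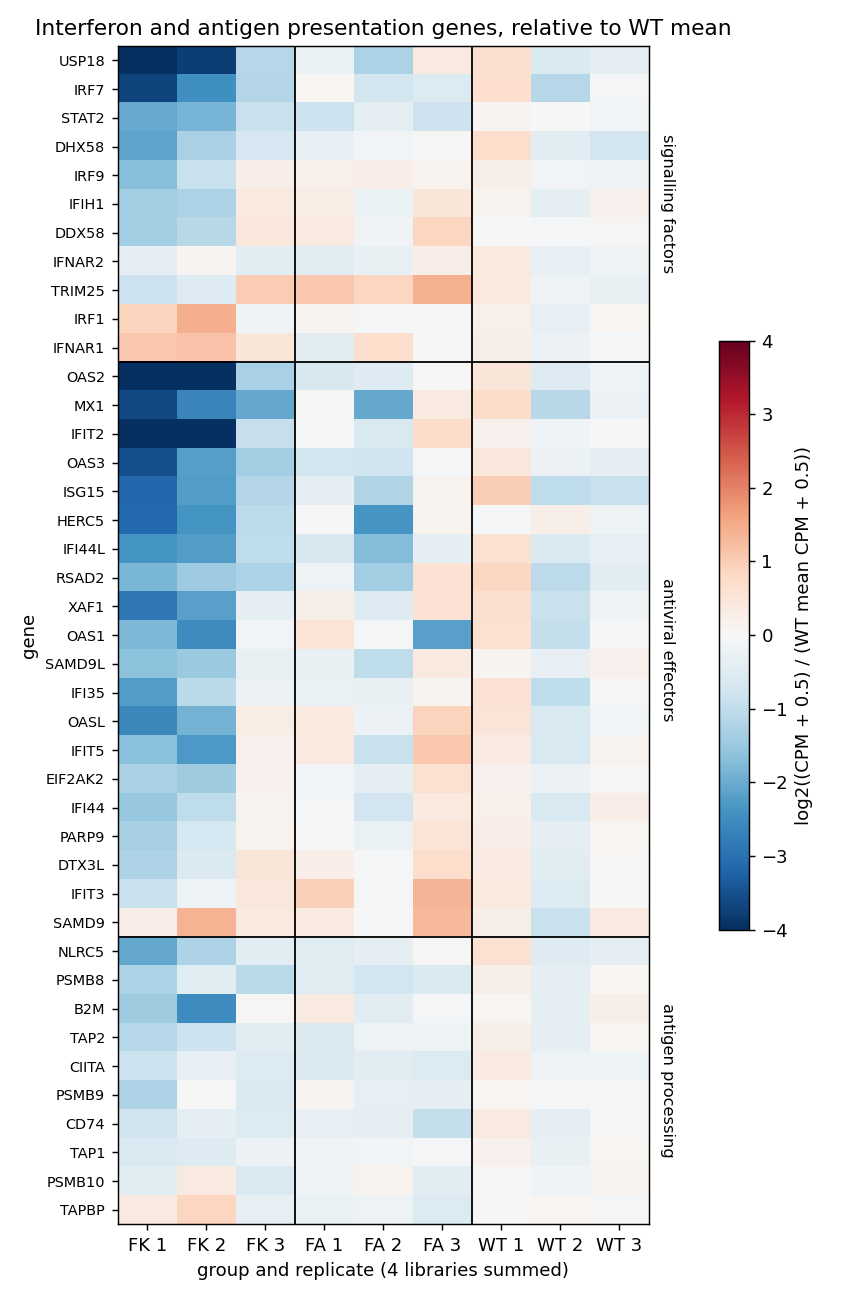
Level of each of the 41 tested members (rows, by class) in each replicate (columns, 4 libraries summed) as log2 of (CPM + 0.5) over the WT mean plus 0.5, with the color scale ending at -4 and 4. The effectors are bluest in FK replicates 1 and 2, at a median of -2.02 in both, and near WT in FK replicate 3, at -0.27.

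Among the signalling factors, STAT2 is the partner of IRF9 in the transcription complex that interferon alpha and beta activate. It stood at 15.7, 17.5 and 34.6 CPM in FK livers, 35.1, 49.1 and 36.5 CPM in FA livers, and 70.1, 64.3 and 59.3 CPM in WT livers. Every FK and FA replicate was below every WT replicate. Between FK and WT its log2 change was -1.52 (SE 0.31, 95% interval -2.22 to -0.81, adjusted p = 0.0408). This call was narrow. It was lost when any single replicate other than FK replicate 3 was left out (adjusted p = 0.0609 to 0.153). It was also lost with only the groups compared (adjusted p = 0.106), with the set number as a replicate block (0.0909) and with library 1 of each set alone (0.0581), and without FK replicate 3 the change was -1.98 (adjusted p = 0.000245).

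IRF7 amplifies the production of type I interferon. It stood at 1.76, 4.88 and 12.7 CPM in FK livers, 31.1, 17.2 and 20.0 CPM in FA livers, and 47.1, 12.8 and 27.5 CPM in WT livers. The 3 FK replicates lay below the WT replicates, although FK replicate 3 was close to the lowest WT value. The log2 change of IRF7 between FK and WT was -2.18 (SE 0.70, adjusted p = 0.0923). USP18, which removes ISG15 from proteins and dampens signalling at the interferon receptor, stood at 0.240, 1.00 and 8.75 CPM in FK livers, 16.6, 7.89 and 25.5 CPM in FA livers, and 31.0, 13.0 and 15.4 CPM in WT livers. FK replicates 1 and 2 thus held 1.21% and 5.06% of the WT mean of USP18, and FK replicate 3 held 44.2%. Its log2 change was -2.57 (SE 1.07, adjusted p = 0.167).

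The RNA sensors showed the same order of FK replicates. DDX58 encodes RIG-I, a sensor of viral RNA ends, and stood at 42.3, 50.8 and 148 CPM in FK livers, 143, 101 and 201 CPM in FA livers, and 110, 106 and 115 CPM in WT livers. IFIH1, a sensor of long double-stranded RNA, stood at 6.03, 6.46 and 21.2 CPM in FK livers, 19.8, 13.4 and 22.8 CPM in FA livers, and 17.9, 12.1 and 18.3 CPM in WT livers. For both sensors FK replicate 3 was above every WT replicate and the other FK replicates were below every WT replicate. DHX58, a regulator of these sensors, stood at 3.66, 6.79 and 10.7 CPM in FK livers, 13.7, 16.0 and 17.7 CPM in FA livers, and 28.8, 12.9 and 10.3 CPM in WT livers. The log2 changes between FK and WT were -0.46 for DDX58 (adjusted p = 0.560), -0.52 for IFIH1 (0.515) and -1.30 for DHX58 (0.117). IRF9, the DNA-binding part of the STAT2 complex, stood at 8.84, 15.9 and 36.4 CPM in FK livers, 34.7, 36.0 and 33.0 CPM in FA livers, and 35.1, 27.5 and 27.2 CPM in WT livers. It followed the sensors, with a log2 change of -0.55 (adjusted p = 0.437).

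Of the remaining signalling factors, 3 had a positive log2 change between FK and WT and IFNAR2 a small negative one. IFNAR1, a chain of the type I interferon receptor, stood at 136, 143 and 90.8 CPM in FK livers, 47.7, 105 and 65.6 CPM in FA livers, and 76.1, 54.6 and 61.7 CPM in WT livers. It was the member whose FK replicates all lay above WT, by a log2 change of 0.94 (SE 0.32, adjusted p = 0.103). Its partner chain IFNAR2 stood at 16.0, 22.4 and 15.4 CPM in FK livers, 15.0, 16.7 and 25.1 CPM in FA livers, and 27.3, 16.4 and 18.7 CPM in WT livers, and the groups overlapped, with a log2 change of -0.21 (adjusted p = 0.662). IRF1, a transcription factor that interferon gamma induces, stood at 19.5, 29.4 and 9.41 CPM in FK livers, 11.2, 9.72 and 9.74 CPM in FA livers, and 11.99, 8.07 and 11.0 CPM in WT livers. IRF1 was high in FK replicates 1 and 2, the replicates in which IRF7 was lowest. Its log2 change was 0.91 (SE 0.36, adjusted p = 0.152). TRIM25, a ubiquitin ligase of RIG-I, stood at 17.5, 22.7 and 65.6 CPM in FK livers, 69.3, 59.2 and 88.0 CPM in FA livers, and 42.5, 28.3 and 26.3 CPM in WT livers. FK replicate 3 resembled FA in this gene, and the log2 change between FK and WT was 0.12 (adjusted p = 0.890).

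**Figure D2:**
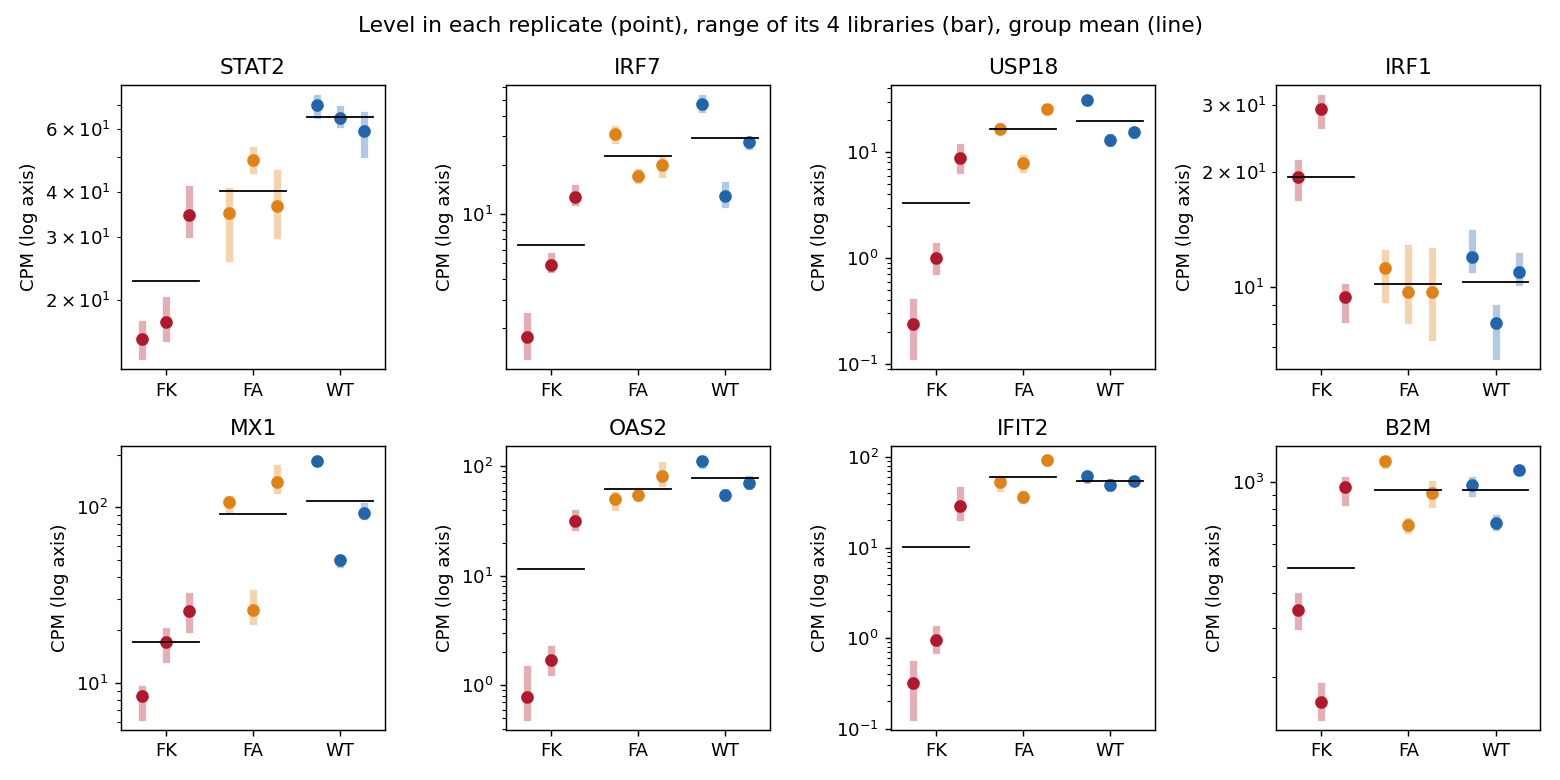
Level in CPM (log axis) of 8 members in each FK, FA and WT replicate, with points for replicates 1, 2 and 3 from left to right, a bar over the range of the 4 libraries and a line at the group mean. FK replicates 1 and 2 of IFIT2 sit at 0.320 and 0.955 CPM and FK replicate 3 at 28.9 CPM, and the bars are short beside that gap.

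Among the antiviral effectors, no member was called between FK and WT, while 8 of 20 were lower at an unadjusted p under 0.05 (10.2% of all genes) and 7 were called lower by DESeq2 (5.78% of all genes). MX1, a GTPase that blocks incoming viruses, stood at 8.44, 17.2 and 25.7 CPM in FK livers, 107, 26.1 and 141 CPM in FA livers, and 183, 50.2 and 93.3 CPM in WT livers. All FK replicates were below WT, and FA replicate 2 was close to FK replicate 3. MX1 had a log2 change of -2.67 between FK and WT (SE 0.71, 95% interval -4.28 to -1.06, adjusted p = 0.0611).

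The oligoadenylate synthetases make the messenger that activates RNase L. OAS2 stood at 0.783, 1.70 and 32.0 CPM in FK livers, 50.2, 54.5 and 82.0 CPM in FA livers, and 112, 54.6 and 70.5 CPM in WT livers. OAS3 stood at 1.09, 3.40 and 6.49 CPM in FK livers, 10.4, 9.91 and 16.8 CPM in FA livers, and 24.3, 14.9 and 13.3 CPM in WT livers. Both genes were below WT in every FK replicate, and OAS2 in FK replicates 1 and 2 held 0.992% and 2.15% of the WT mean. The log2 changes were -2.78 for OAS2 (SE 1.16, adjusted p = 0.166) and -2.26 for OAS3 (SE 0.57, adjusted p = 0.0550). OAS1 stood at 0.703, 0.228 and 3.38 CPM in FK livers, 5.67, 3.50 and 0.435 CPM in FA livers, and 5.97, 1.68 and 3.45 CPM in WT livers. FA replicate 3, highest of its group for 19 of the 20 effectors, was lowest for OAS1. OASL, a related protein that in human cells enhances RIG-I, stood at 1.28, 2.38 and 12.4 CPM in FK livers, 13.3, 8.52 and 19.3 CPM in FA livers, and 14.6, 6.43 and 9.33 CPM in WT livers. FK replicate 3 lay within the WT range for both genes, and their log2 changes between FK and WT were -1.37 for OAS1 (adjusted p = 0.440) and -0.92 for OASL (adjusted p = 0.466).

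The IFIT proteins bind viral RNA. IFIT2 stood at 0.320, 0.955 and 28.9 CPM in FK livers, 52.8, 36.0 and 91.7 CPM in FA livers, and 61.4, 48.9 and 54.0 CPM in WT livers. This was 0.584%, 1.74% and 52.8% of the WT mean in FK replicates 1, 2 and 3. IFIT2 was below WT in all 3 of them, with a log2 change of -2.44 whose error was large (SE 1.30, adjusted p = 0.260). IFIT5 stood at 26.2, 16.9 and 95.4 CPM in FK livers, 111, 45.5 and 180 CPM in FA livers, and 107, 55.4 and 93.5 CPM in WT livers. IFIT3 stood at 15.8, 26.0 and 41.0 CPM in FK livers, 58.5, 28.7 and 77.7 CPM in FA livers, and 38.9, 20.2 and 30.0 CPM in WT livers. IFIT5 had a log2 change of -0.89 (adjusted p = 0.435) and IFIT3, which lies within 3 genes of IFIT2 in the RefSeq gene order, one of -0.11 (adjusted p = 0.900). FK replicate 1 held 53.1% of the WT mean for IFIT3 and 0.584% for its neighbour IFIT2, and the difference between the genes was not tested.

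ISG15 is a ubiquitin-like modifier, and HERC5 is the ligase that attaches it in human cells. ISG15 stood at 1.07, 2.46 and 5.68 CPM in FK livers, 10.1, 5.52 and 14.8 CPM in FA livers, and 26.7, 6.41 and 6.88 CPM in WT livers. HERC5 stood at 1.07, 2.09 and 6.01 CPM in FK livers, 13.2, 2.14 and 14.3 CPM in FA livers, and 12.3, 15.4 and 11.2 CPM in WT livers. Both lay below WT in every FK replicate, and HERC5 was also low in FA replicate 2. The log2 changes between FK and WT were -2.12 for ISG15 (SE 0.75, adjusted p = 0.115) and -2.08 for HERC5 (SE 0.76, adjusted p = 0.123). RSAD2, the antiviral enzyme viperin, stood at 1.26, 1.79 and 2.08 CPM in FK livers, 4.90, 1.88 and 8.72 CPM in FA livers, and 10.6, 2.48 and 4.11 CPM in WT livers. IFI44L stood at 1.42, 1.62 and 4.51 CPM in FK livers, 5.89, 2.53 and 7.18 CPM in FA livers, and 14.9, 6.22 and 7.44 CPM in WT livers. Neither gene overlapped between FK and WT, and their log2 changes were -1.74 for RSAD2 (adjusted p = 0.131) and -1.92 for IFI44L (adjusted p = 0.0813).

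For the other effectors FK replicate 3 lay within or near the WT range. XAF1, which promotes cell death, stood at 0.368, 0.895 and 4.29 CPM in FK livers, 6.82, 3.86 and 8.77 CPM in FA livers, and 9.25, 2.83 and 5.15 CPM in WT livers. EIF2AK2, the kinase PKR that stops translation, stood at 4.04, 3.73 and 12.1 CPM in FK livers, 9.86, 8.15 and 16.5 CPM in FA livers, and 12.1, 8.94 and 11.1 CPM in WT livers. SAMD9L, a relative of SAMD9, stood at 12.4, 13.7 and 32.0 CPM in FK livers, 32.2, 19.4 and 52.0 CPM in FA livers, and 42.9, 31.6 and 44.2 CPM in WT livers. In these 3 genes FK replicates 1 and 2 were below all WT replicates, while the log2 changes over the whole group were -1.63, -0.70 and -1.03 (adjusted p = 0.236, 0.366 and 0.177). SAMD9, a restriction factor of poxviruses in human cells, stood at 14.0, 30.9 and 15.1 CPM in FK livers, 15.0, 11.3 and 29.0 CPM in FA livers, and 13.6, 5.93 and 14.9 CPM in WT livers. It was the effector with a positive log2 change, 0.80 (adjusted p = 0.316), beside its neighbour SAMD9L at -1.03, and the difference between the genes was not tested.

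PARP9 and DTX3L form a complex that modifies histones and viral proteins, and they too lie within 3 genes of each other. PARP9 stood at 7.38, 11.7 and 21.2 CPM in FK livers, 19.5, 16.0 and 28.0 CPM in FA livers, and 23.02, 14.5 and 20.1 CPM in WT livers. DTX3L stood at 8.65, 13.9 and 29.4 CPM in FK livers, 25.1, 20.1 and 34.1 CPM in FA livers, and 26.1, 15.0 and 21.5 CPM in WT livers. The pair had the same order of replicates in each group, with log2 changes between FK and WT of -0.52 and -0.27 (adjusted p = 0.419 and 0.728). IFI35 stood at 2.59, 6.37 and 11.8 CPM in FK livers, 11.5, 11.3 and 14.9 CPM in FA livers, and 20.8, 6.60 and 14.2 CPM in WT livers. IFI44 stood at 4.86, 7.14 and 16.2 CPM in FK livers, 14.1, 8.54 and 19.8 CPM in FA livers, and 17.04, 9.57 and 17.9 CPM in WT livers. Their log2 changes were -1.01 and -0.66 (adjusted p = 0.268 and 0.407). ISG20, an exonuclease, was close to undetected, with 11 counts over the FK group, 3 over the FA group and 0 over the WT group.

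Of the 7 effectors with no row under their symbol, 3 had a row under a LOC identifier that the RefSeq gene table pairs with the symbol. They were outside the counts above. HERC6 stood at 2.68, 2.18 and 4.75 CPM in FK livers, 3.59, 4.75 and 5.67 CPM in FA livers, and 16.2, 5.36 and 10.8 CPM in WT livers. RNF213 stood at 9.68, 12.1 and 25.7 CPM in FK livers, 24.9, 27.9 and 31.0 CPM in FA livers, and 53.5, 27.3 and 30.4 CPM in WT livers. In both genes every FK replicate was below every WT replicate. PARP14, a neighbour of PARP9 and DTX3L, stood at 10.1, 15.2 and 31.5 CPM in FK livers, 27.3, 26.2 and 48.9 CPM in FA livers, and 43.5, 20.5 and 30.2 CPM in WT livers. MX2, IFIT1, IFI6 and BST2 were not analysed here.

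Among the antigen processing genes, none was called between FK and WT, while 4 of 10 were lower at an unadjusted p under 0.05 (10.2% of all genes). DESeq2 called 2 of 10 lower, TAP2 and PSMB8 (5.78% of all genes). B2M, the light chain of MHC class I, stood at 347, 162 and 959 CPM in FK livers, 1191, 703 and 912 CPM in FA livers, and 978, 716 and 1109 CPM in WT livers. FK replicates 1 and 2 held 37.1% and 17.4% of the WT mean, and FK replicate 3 held 103%. The log2 change of B2M was -0.93 (SE 0.58, adjusted p = 0.334). NLRC5, the transactivator of MHC class I genes, stood at 0.575, 1.41 and 2.82 CPM in FK livers, 2.68, 3.00 and 4.07 CPM in FA livers, and 6.28, 2.61 and 3.00 CPM in WT livers. NLRC5 had a log2 change of -1.31 (SE 0.57, adjusted p = 0.182), the largest of the class in size.

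TAP1 and TAP2 form the peptide transporter, and PSMB8, PSMB9 and PSMB10 are the catalytic subunits of the immunoproteasome. TAP2 stood at 7.16, 8.80 and 12.1 CPM in FK livers, 10.7, 14.1 and 14.1 CPM in FA livers, and 19.0, 12.5 and 17.2 CPM in WT livers. PSMB8 stood at 3.31, 5.98 and 3.85 CPM in FK livers, 5.98, 4.80 and 5.66 CPM in FA livers, and 10.2, 6.38 and 9.19 CPM in WT livers. Both genes lay below WT in all FK replicates, by log2 changes of -0.80 for TAP2 (SE 0.25, adjusted p = 0.0900) and -0.97 for PSMB8 (SE 0.29, adjusted p = 0.0770), and PSMB8 lay below WT in all FA replicates too. TAP1 stood at 8.34, 8.95 and 10.9 CPM in FK livers, 11.7, 12.2 and 12.6 CPM in FA livers, and 14.8, 10.4 and 13.8 CPM in WT livers. PSMB9 stood at 1.14, 3.43 and 2.08 CPM in FK livers, 3.69, 2.58 and 2.53 CPM in FA livers, and 3.56, 3.24 and 3.31 CPM in WT livers. TAP1, TAP2, PSMB8 and PSMB9 lie within 3 genes of each other in the RefSeq table, and the other members of that cluster had log2 changes of -0.47 for TAP1 (adjusted p = 0.160) and -0.60 for PSMB9 (adjusted p = 0.352). PSMB10, outside that cluster, stood at 11.7, 20.0 and 10.2 CPM in FK livers, 14.1, 17.4 and 11.2 CPM in FA livers, and 16.1, 14.1 and 16.9 CPM in WT livers, with a log2 change of -0.17 (adjusted p = 0.741).

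The remaining 3 genes of the class serve peptide loading and MHC class II. TAPBP, tapasin, holds class I molecules at the transporter and stood at 17.6, 24.8 and 10.7 CPM in FK livers, 11.2, 11.6 and 9.12 CPM in FA livers, and 13.5, 14.2 and 12.8 CPM in WT livers. It was the member of the class with a positive log2 change between FK and WT, 0.39 (adjusted p = 0.397), and FK replicates 1 and 2 were above every WT replicate. CIITA, the class II transactivator, stood at 1.23, 2.03 and 1.64 CPM in FK livers, 1.61, 1.81 and 1.67 CPM in FA livers, and 3.43, 2.22 and 2.32 CPM in WT livers. CD74, the class II invariant chain, stood at 79.8, 107 and 93.9 CPM in FK livers, 110, 105 and 71.8 CPM in FA livers, and 177, 105 and 133 CPM in WT livers. CIITA was below WT in all FK and all FA replicates, and for both genes FK replicate 3 was close to the other FK replicates. Their log2 changes between FK and WT were -0.70 for CIITA (SE 0.31, adjusted p = 0.188) and -0.56 for CD74 (SE 0.26, adjusted p = 0.211).

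Without FK replicate 3, the fit of the remaining 8 replicates called 27 of 41 members lower and 3 higher in FK than in WT. That fit holds FK replicates 1 and 2 only, and the replicate left out was singled out by its own values in these data. It was the highest of its group for 31 of 41 members, so leaving it out lowers the FK mean of those members. No member was called in either direction when any other single replicate was left out. In that fit 16.2% of all 15453 tested genes were called lower and 18.7% higher. The calls fell on 7 of 11 signalling factors, 16 of 20 effectors and 4 of 10 antigen processing genes as lower, with median log2 changes of -1.29, -2.24 and -0.66, against 0.01 over all genes. The largest falls were -6.43 for IFIT2 (SE 0.61, adjusted p = 0.000134), -6.00 for OAS2 (SE 0.53, adjusted p = 9.12e-05) and -5.00 for USP18 (SE 0.79, adjusted p = 0.00148). XAF1, IRF7, MX1 and HERC5 had log2 changes of -3.19, -3.14, -3.10 and -3.05. Of the other effectors called, OAS1 had -3.01, OAS3 -2.98, ISG15 -2.93, IFI44L -2.66 and OASL -2.48. IFIT5 had -2.0, STAT2 -1.98, DHX58 -1.74, IFI35 -1.64, SAMD9L -1.61, EIF2AK2 -1.48, IFI44 -1.32, IRF9 -1.29 and PARP9 -1.03. DDX58 had -1.26 and IFIH1 -1.39, whereas neither was called with FK replicate 3 included. In antigen processing the called falls were -2.01 for NLRC5, -1.90 for B2M (adjusted p = 0.00640), -1.04 for TAP2 and -0.61 for TAP1.

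The members called higher without FK replicate 3 were IRF1, with a log2 change of 1.22 (adjusted p = 0.00438), IFNAR1, with 1.10 (adjusted p = 0.0236), and TAPBP, with 0.64 (adjusted p = 0.0410). IRF1 and TAPBP overlap other genes in the RefSeq table, as do HERC5, IFI35 and PARP9 among those called lower, so their values are uncertain. IFNAR2, TRIM25, DTX3L, SAMD9, IFIT3, RSAD2, PSMB8, PSMB9, PSMB10, CIITA and CD74 were not called. TRIM25 had a log2 change of -0.71 without that replicate (adjusted p = 0.0750), against 0.12 with it, and RSAD2 had -1.92, DTX3L -0.90 and SAMD9 0.96. IFIT3, PSMB9, IFNAR2 and PSMB10 had -0.52, -0.57, -0.13 and 0.00. PSMB8 had nearly the same log2 change without that replicate, -0.90 (adjusted p = 0.0512), as with it, -0.97. CIITA (-0.72 and -0.70) and CD74 (-0.58 and -0.56) likewise had similar changes in the fits without and with FK replicate 3.

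**Figure D3:**
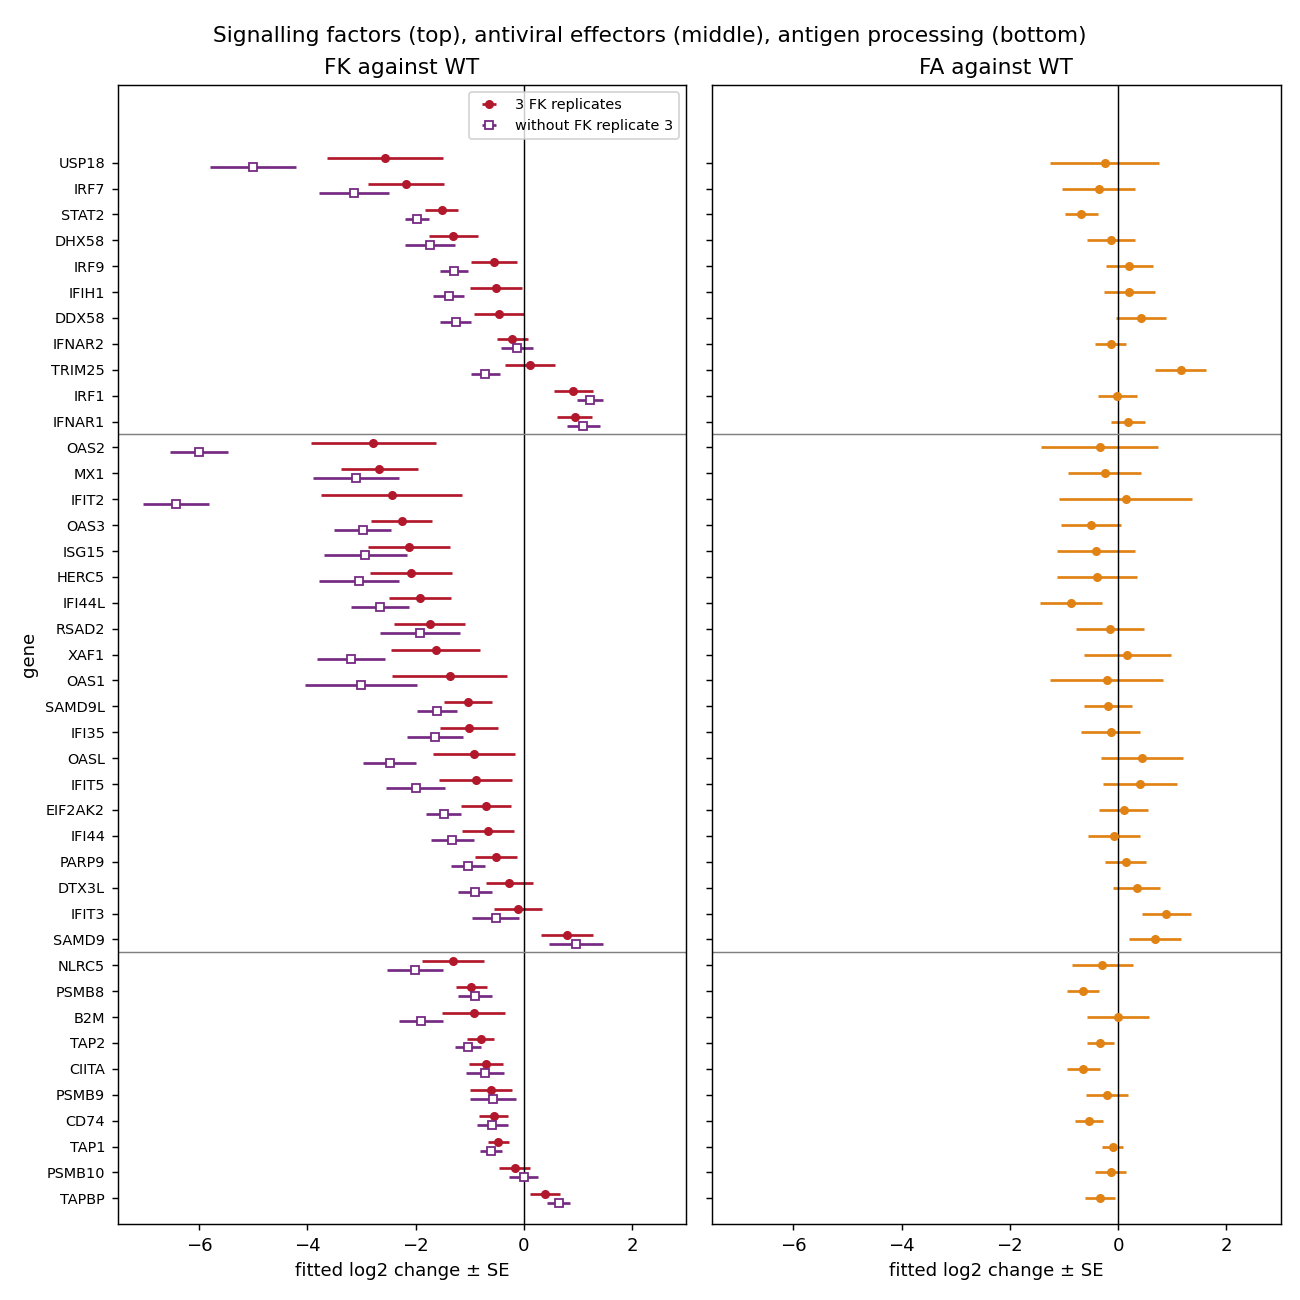
Fitted log2 change of each tested member (rows, by class) with its standard error, for FK against WT on the left, with all FK replicates (filled) and without FK replicate 3 (open), and for FA against WT on the right. Leaving out FK replicate 3 moves OAS2 from -2.78 to -6.00 and IFIT2 from -2.44 to -6.43, while CIITA stays near its value, at -0.70 and -0.72.

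Between FA and WT livers no member was called in either direction, where 0.0736% of all genes were called lower and 0.0937% higher. At an unadjusted p under 0.05, PSMB8 was lower and TRIM25 higher, where 5.05% and 5.11% of all genes were. DESeq2 also called no member in either direction, where it called 0.935% of all genes lower and 1.15% higher. The median log2 change was -0.02 for signalling factors, -0.11 for effectors and -0.31 for antigen processing, and 26 of 41 members were negative. FA replicates lay wholly below WT for 4 members, STAT2, PSMB8, CIITA and TAPBP, where 12.4% of all genes did so, and wholly above for TRIM25, where 12.5% did. STAT2 had a log2 change of -0.68 between FA and WT (SE 0.31, adjusted p = 0.495), beside 0.21 for its partner IRF9 (adjusted p = 0.918). PSMB8 had -0.65 (adjusted p = 0.490), CIITA -0.64 (adjusted p = 0.515) and CD74 -0.53 (adjusted p = 0.529). For TRIM25 the change was 1.16 (SE 0.47, 95% interval 0.09 to 2.22, adjusted p = 0.451). A limma-voom fit of the 36 libraries called it higher, and the share of all genes called by that fit is not given here. The intervals leave room for sizeable changes of single genes. For IFIT2 the log2 change of 0.14 had a 95% interval of -2.65 to 2.92, and for MX1 the change of -0.25 had one of -1.77 to 1.26. Without FK replicate 3, which shares the spread estimate of this fit, 0 members were called lower and 0 higher between FA and WT, against 0.686% and 0.912% of all genes.

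Between FA and FK livers no member was called in either direction, as for all genes (0% lower and 0% higher). At an unadjusted p under 0.05, 7 members were higher and 3 lower in FA, where 7.06% and 14.9% of all genes were. DESeq2 called MX1 and OAS3 higher in FA and no member lower, where it called 2.32% of all genes higher and 8.75% lower. The median log2 change was 0.83 for signalling factors, 1.22 for effectors and 0.34 for antigen processing. All FA replicates lay above all FK replicates for 8 members, where 8.24% of all genes did so, and below them for 0, where 8.99% did. The 8 were STAT2, IRF7, DHX58, MX1, IFIT2, OAS2, OAS3 and TAP1. MX1 had a log2 change of 2.41 between FA and FK (SE 0.70, adjusted p = 0.121) and OAS3 one of 1.76 (SE 0.56, adjusted p = 0.136). Without FK replicate 3, 28 members were called higher and 3 lower in FA than in FK, where 16.4% and 18.1% of all genes were. Those lower were IRF1, IFNAR1 and TAPBP. The median log2 changes in that fit were 1.60 for signalling factors, 2.09 for effectors and 0.31 for antigen processing. The 3 comparisons share their groups, so their counts are not independent of each other.

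Within each group the effectors also kept an order of replicates. FK replicate 1 was the lowest of its group for 17 of 20 effectors and FK replicate 3 the highest for 19. In FA, replicate 2 was lowest for 18 and replicate 3 highest for 19. In WT, replicate 2 was lowest for 18 and replicate 1 highest for 16. Over all genes a given replicate was lowest of its group for 26.0% to 40.6% and highest for 23.4% to 41.8%. The range within WT was wide for single genes, with MX1 between 50.2 and 183 CPM, ISG15 between 6.41 and 26.7 CPM and RSAD2 between 2.48 and 10.6 CPM. HERC5, at 11.2 to 15.4 CPM in WT, did not follow that order. Antigen processing genes had WT replicate 2 as lowest in 9 of 10, but no FA replicate was lowest or highest in more than 4 of 10.

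**Figure D4:**
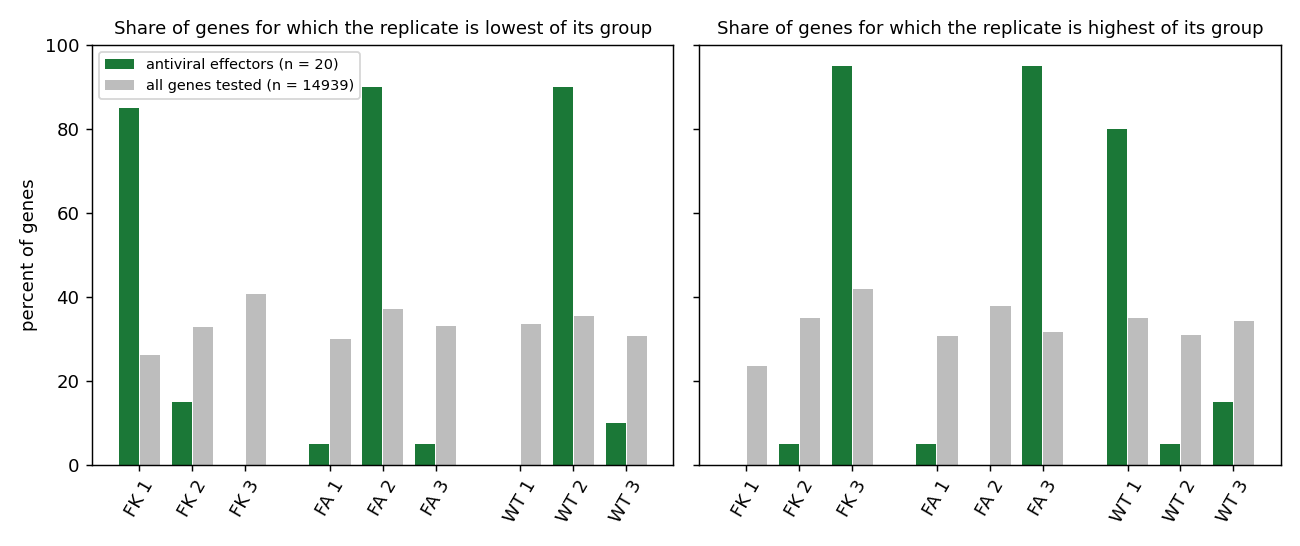
Share of genes, in percent, for which each replicate is the lowest (left) or the highest (right) of its own group, for the 20 antiviral effectors and for all 14939 genes tested. FA replicate 2 and WT replicate 2 are lowest for 90% of effectors, and FK replicate 3 and FA replicate 3 highest for 95%.

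Other genes of the pathway were taken from a list of 92 by role, of which 68 had a row and 64 were tested. Between FK and WT, 2 of these were called lower and 1 higher, where 1.73% and 3.04% of all genes were. Between FA and WT none was called by edgeR, and 3 were lower and 2 higher at an unadjusted p under 0.05, where 5.05% and 5.11% of all genes were. These counts are near the background. The genes called between FK and WT had an adjusted p of 0.0368 to 0.0486 in the main fit, close to the threshold. Of the alternatives, only the fit without FK replicate 3 is given for them. The other alternatives, in many of which the STAT2 call was lost, are not given for these genes. Among ligands, receptors and kinases (9 tested), SOCS3, a feedback inhibitor of cytokine signalling, rose with a log2 change of 3.34 (adjusted p = 0.0486), and of 3.74 without FK replicate 3 (adjusted p = 0.00278). It stood at 58.5, 78.6 and 16.8 CPM in FK livers, 5.81, 29.8 and 9.97 CPM in FA livers, and 6.71, 6.02 and 2.45 CPM in WT livers. The interferon genes IFNB1, IFNK and IFNE had 0 counts in all 36 libraries, and IFNG stood at 1.52 to 2.54 CPM in FK livers, 1.44 to 2.39 CPM in FA livers and 1.68 to 1.97 CPM in WT livers. JAK1, the kinase bound to the receptor, had a log2 change of -0.13 between FK and WT (adjusted p = 0.677).

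Of 30 other interferon-induced genes, PARP12 fell in FK with a log2 change of -1.11 (adjusted p = 0.0442), and of -1.09 without FK replicate 3 (adjusted p = 0.0148). It stood at 6.82, 9.84 and 7.67 CPM in FK livers, 9.95, 6.30 and 11.1 CPM in FA livers, and 17.4, 16.8 and 18.6 CPM in WT livers, so that FA also lay wholly below WT. Of 10 other antigen presentation genes, TAPBPL, a tapasin-like peptide editor, fell with a log2 change of -0.83 (adjusted p = 0.0368), and of -0.95 without FK replicate 3 (adjusted p = 0.00281). It stood at 16.4, 19.0 and 21.2 CPM in FK livers, 26.5, 26.0 and 23.8 CPM in FA livers, and 31.8, 36.0 and 33.1 CPM in WT livers. In PARP12 and TAPBPL, as in CIITA and PSMB8, FK replicate 3 was not apart from the other FK replicates. Of 15 other sensing and transcription factors none was called between FK and WT. At an unadjusted p under 0.05, 1 was lower and 2 higher, where 10.2% and 16.7% of all genes were. RNF135 (-0.82, adjusted p = 0.0947), TRAF3 (0.71, adjusted p = 0.123) and TRIM56 (0.61, adjusted p = 0.156) had the smallest p of that list. Without FK replicate 3, 12 of the 30 other interferon-induced genes were called lower and 4 higher in FK, where 16.2% and 18.7% of all genes were. In that fit 1 of 9 ligands, receptors and kinases was called lower and 2 higher, of 15 sensing and transcription factors 2 lower and 2 higher, and of 10 antigen presentation genes 2 lower and 0 higher. The median log2 change between FK and WT over the 64 genes was -0.04, against -0.89 over the 41 members. Both lists were chosen with earlier results of these data known, so this contrast cannot show a fall particular to the members.

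Markers of other cell types differed between replicates and groups. Erythroid markers (15 of 16 in the table) summed to 953, 2503 and 158 CPM in FK replicates 1, 2 and 3, 117 to 266 CPM in FA and 42.3 to 111 CPM in WT, and HBZ was at 0 in WT. The transferrin receptor TFRC, called higher in FK, gave 143 of the 158 CPM in FK replicate 3, 109 to 242 CPM in FA and 19.0 to 28.1 CPM in WT. Without TFRC the sums were 765, 2181 and 15.2 CPM in FK, 8.13 to 23.3 CPM in FA and 17.8 to 83.3 CPM in WT. Neutrophil markers (11 of 13) summed to 1222, 2186 and 29.9 CPM in FK, 20.6 to 44.2 CPM in FA and 19.1 to 33.1 CPM in WT. Markers of cell division (10 of 10) summed to 327, 741 and 20.1 CPM in FK, 14.7 to 20.9 CPM in FA and 14.7 to 18.6 CPM in WT. Without TFRC, all 3 sums were far above FA and WT in FK replicates 1 and 2, the replicates with the lowest effectors, and lay within the range of FA and WT in FK replicate 3. The part of these cells in the lower interferon genes was not tested.

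B cell markers (11 of 12) summed to 5.16, 7.72 and 30.1 CPM in FK, 29.9 to 39.4 CPM in FA and 87.0 to 99.8 CPM in WT. JCHAIN, which plasma cells make, gave 27.6 of the 30.1 CPM in FK replicate 3, against 80.5 of 92.8 CPM in WT replicate 1. It was most of the B cell sum in every FA and WT replicate. The median B cell marker stood at log2 differences of -0.70, -0.36 and -0.78 from the WT mean in FK and -0.34, -0.47 and -0.80 in FA. By that median FK replicate 3 was the lowest FK replicate, while by the sum it was the highest. Several of these markers had WT means under 0.5 CPM, where the added 0.5 shrinks differences. Macrophage markers (11 of 15) summed to 882, 644 and 566 CPM in FK, 356 to 489 CPM in FA and 633 to 863 CPM in WT, and CLEC4F was at 0 in FA. Dendritic cell markers (8 of 11) summed to 14.5, 11.3 and 6.84 CPM in FK, 4.50 to 7.72 CPM in FA and 7.05 to 8.35 CPM in WT. FLT3 gave 6.71 and 4.44 CPM of the sums in FK replicates 1 and 2. The median dendritic cell marker stood at log2 differences of -0.33, -0.37 and -0.36 from the WT mean in the FK replicates. XCR1, CCR7, SPIB and BATF3 had WT means of only 0.257 to 0.558 CPM, so the added 0.5 shrinks their differences. The FK mean was 23.3%, 29.9%, 33.6% and 69.5% of the WT mean for these genes and 34.7% for CD83. It was 133% for TCF4, 264% for ITGAX and 685% for FLT3. CIITA and CD74 are genes of these antigen-presenting cells. In FA, where macrophage and B cell sums lay below WT, the log2 changes of CIITA and CD74 against WT were -0.64 and -0.53. In FK, where B cell sums lay below WT but macrophage sums overlapped WT, these changes were -0.70 and -0.56. Because JCHAIN was most of the B cell sum in FA and WT, these sums say little about the other B cell markers. The part of antigen-presenting cells in the changes of CIITA and CD74 was not tested in either group. T and NK cell markers (13 of 16) summed to 9.13, 12.2 and 5.86 CPM in FK, 7.21 to 13.5 CPM in FA and 11.9 to 15.4 CPM in WT. NKG7 gave 3.20 and 5.67 CPM of the sums in FK replicates 1 and 2, while the median marker of that list stood at -0.99, -0.69 and -0.56. Several markers of that list also had levels near the added 0.5 CPM, which shrinks their differences. CD3E, a part of the T cell receptor complex, stood at 0.128, 0.485 and 0.473 CPM in FK, against 1.30 to 1.74 CPM in WT. Endothelial markers (10 of 11) summed to 458, 316 and 299 CPM in FK, 210 to 314 CPM in FA and 364 to 456 CPM in WT. Hepatocyte markers (12 of 12) summed to 260900, 163753 and 250353 CPM in FK, 221853 to 282157 CPM in FA and 205495 to 271219 CPM in WT. By these sums FK replicates 1 and 3 lay within the WT range and FK replicate 2 lay below it. ALB alone gave 145986, 85068 and 180795 CPM of the FK sums, so the sums mostly follow ALB. The median hepatocyte marker stood at log2 differences of 0.36, -0.02 and 0.10 from the WT mean in FK. Single markers went both ways. APOA1, APOB, TF, FGB and FGG lay above WT in every FK replicate, and TTR, APOA2 and ASGR1 lay below WT in every FK replicate. The markers called between FK and WT were MS4A1, CD5 and CLEC4G as lower and APOA1, CD163, TFRC, S100A8, S100A9, S100A12, CAMP, TOP2A and TYMS as higher. Of all genes tested, 1.73% were called lower and 3.04% higher in that comparison.

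**Figure D5:**
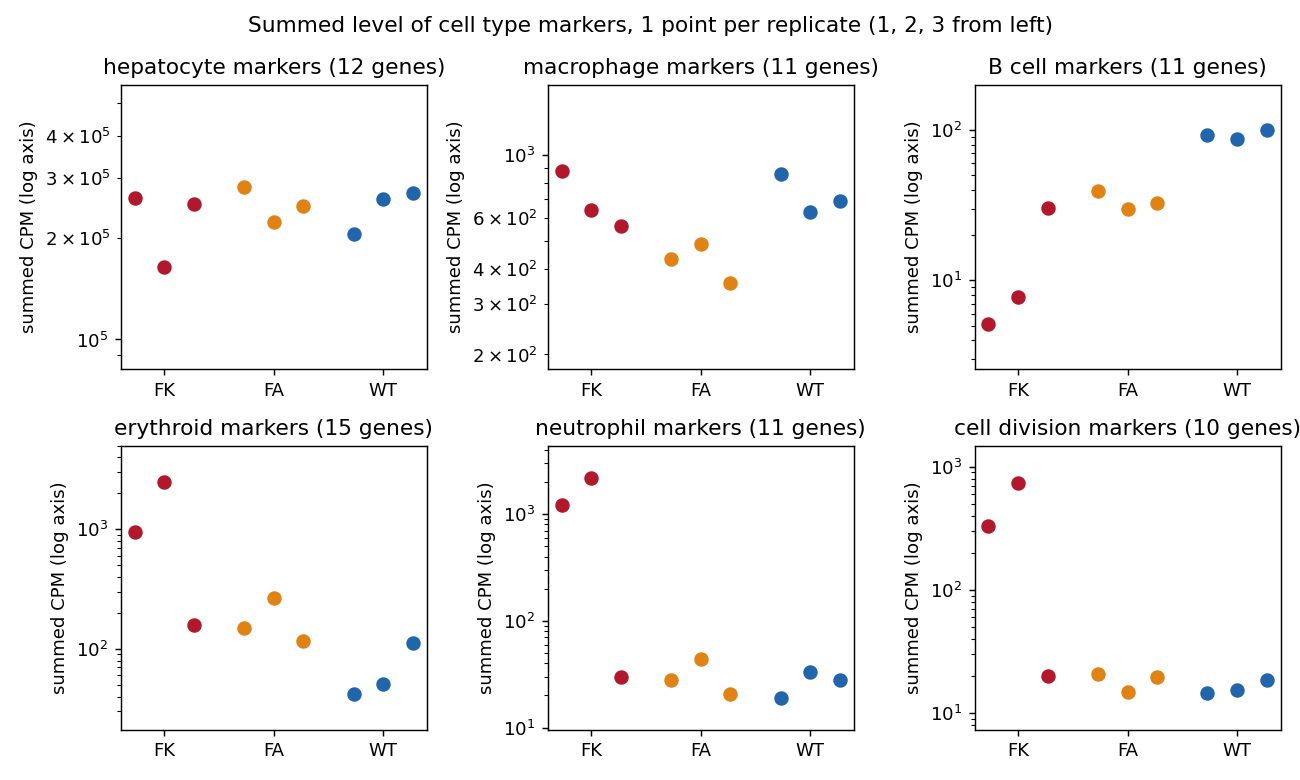
Summed level in CPM (log axis) of cell type markers in each FK, FA and WT replicate, with 1 point per replicate. Erythroid, neutrophil and cell division markers are highest in FK replicates 1 and 2, at 953 and 2503 CPM for erythroid markers, and B cell markers are highest in WT, at 87.0 to 99.8 CPM.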

How the data were processed

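The members and lists were chosen with earlier results of these data known. The authors deposited 1 table of gene-level values for 36 liver libraries, which are estimated counts written as whole numbers. The submitters' processing notes name Salmon 0.14.1, while its role, the genome build and the library strand were not given in the sources used here. Genes that overlap others in the RefSeq table (IRF1, IFI35, HERC5, PARP9, RSAD2, TAPBP and RNF213) or have similar copies (the OAS, IFIT, IFI44 and SAMD9 families) are therefore uncertain. RefSeq names come from assembly mOryCun1.1 and were used for symbols and gene order.

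Counts of the 4 libraries of a set were summed, giving 9 replicates of 53.2 to 78.6 M counts. A single model held them all, in edgeR 4.0.16 under R 4.3.3, with TMM scaling, the filterByExpr filter and quasi-likelihood F tests, and p-values were Benjamini-Hochberg adjusted over all genes tested. The biological coefficient of variation between replicates was 45.2%. Log2 changes are fitted values with standard errors, and a gene was called at adjusted p under 0.05. Log2 differences from the WT mean used CPM + 0.5. The procedure was tested on simulated data.

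Members called, the 6 largest changes between FK and WT and the 3 highest levels of each class were to be named by rule, and the values of the remaining members were added after they were seen. The erythroid sum without TFRC was also added after values were seen. Other pathway genes were named where called, or by the 3 smallest p of a list. The interferon genes and JAK1 were named outside that rule. Deviations of same-numbered replicates correlated at -0.087 to 0.099, and the labels do not pair them, so the main fit has no block. Alternatives were DESeq2 1.42.0, RLE factors, no filter, at least 1 CPM in 3 replicates, only the groups compared, a replicate block, limma-voom (limma 3.58.1) on 36 libraries with a random set effect, only library 1 of every set, and leaving out each replicate. Python 3.11.15 with matplotlib 3.10.9 drew the figures.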

Additional observations from a re-analysis of the deposited data

How the results depend on the processing

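The number of members called lower in FK against WT, 1 in the edgeR fit of 9 replicates, was 13 with DESeq2, 19 with limma-voom on 36 libraries, 0 with only the groups compared, 0 with library 1 of each set alone and 0 with the set number as a replicate block. Leaving out each replicate in turn gave 0 to 27, and the 27 came without FK replicate 3. Members called higher in FK against WT, 0 in that fit, were 2 with limma-voom and 0 to 3 when replicates were left out. In FA against WT limma-voom called 1 member higher. The share of all genes that limma-voom called is not given here, so its counts are not set against a background. In FA against FK, members called lower were 1 with limma-voom and 0 to 3 when replicates were left out, and members called higher were 2 with DESeq2, 21 with limma-voom and 0 to 28 when replicates were left out. Of the 13 members that DESeq2 called lower in FK, 11 were also called without FK replicate 3. Why these counts differ was not tested. Some of these fits also hold fewer replicates or groups. Of 2091 values of single members and alternatives, 1963 kept their direction and their side of the threshold, 117 passed it newly, 11 lost it and 0 turned round. All 11 lost values were those of STAT2 in FK against WT, whose log2 change ran from -1.98 to -1.31 over 17 alternatives with an adjusted p between 1.81e-06 and 0.153. The replicate block left 0 members called in every comparison, and the check of the replicate numbers, at correlations of -0.087 to 0.099, did not pair the samples. RLE factors moved the median change of all genes by at most 0.016 on the log2 scale. Among the members with a row, ISG20 alone did not pass the filter on low counts. It had 11, 3 and 0 counts over FK, FA and WT and was not tested.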
